A study of Aspergillus nidulans with 6 samples.

Results

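The 181 genes described here were transcribed in untreated mycelium of Aspergillus nidulans, a filamentous fungus, and lay at least 8-fold lower with tyrosol. They were chosen on that contrast itself. A gene with an AN number entered when its untreated mean was at least 40 RPKM (reads per kilobase of gene length, scaled to the library's total of counted reads) and its tyrosol mean was at least 8-fold lower. Of the 10988 features in the deposited table, 10748 were AN-numbered genes, and 2836 of these had an untreated mean of at least 40 RPKM. Of those 2836 genes, 184 (6.49%) were at least 8-fold lower, and sC, flbC and erg13 were left out of the 184. Every level and fold below that concerns a member on this contrast is therefore a description of the choice and carries no test.

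The tyrosol group held 3 libraries from cultures given 35 mM tyrosol in exponential phase, and the untreated group held 3 libraries from cultures that received none. All 6 came from the wild type FGSC A4, grown as mycelium in Barratt's minimal broth at 37 °C with shaking. The sources used here give neither the length of exposure nor whether replicates were separate cultures, so the spread between libraries may be technical. Tyrosol is a small phenolic alcohol that fungi can make from tyrosine. In bulk RNA of this kind, fewer cells of a type and less RNA per cell cannot be told apart.

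Several named members belong to the route that builds ribosomes. In fungi the large precursor of ribosomal RNA is made in the nucleolus, modified by small nucleolar ribonucleoproteins (snoRNPs), and cut and folded on the way to the small and the large subunit. Helicases of the DEAD-box family remodel RNA at many of these steps. In budding yeast the genes of this route are known to be transcribed together and in step with growth. Other named members act in sterol synthesis, protein folding and import, signalling and development.

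Only 28 of the 181 members carried a gene symbol in the reference gene table, and 153 were known by their AN number alone. Many of those symbols are names carried over from budding yeast, so the roles given below are those known from budding yeast unless A. nidulans is named. The table held 175 of the members, and the other 6 were not in it.

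The members covered a wide range of levels in both groups. Their tyrosol means ran from 1.18 to 438 RPKM with a median of 6.19, and their untreated means from 40.1 to 3867 RPKM with a median of 83.8. With tyrosol 129 of them were below 10 RPKM and 15 were still at or above 40 RPKM. The fold by which the tyrosol mean was lower had a median of 12.4, with quartiles at 9.86 and 16.9 and a maximum of 70.1. It was at least 16-fold in 57 members, at least 20-fold in 27 and at least 30-fold in 9. Over all 2836 genes at or above 40 RPKM untreated, the median ratio of the tyrosol to the untreated mean was 0.649, against 0.0807 over the members.

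The members took 0.474%, 0.464% and 0.523% of all counted reads in the tyrosol libraries, against 5.59%, 5.66% and 5.11% in the untreated libraries. The libraries held 9353438 to 11917409 counted reads. The lowest count of any member was 11 reads in a tyrosol library and 255 reads in an untreated one, and 31 members had under 50 reads in at least 1 tyrosol library. In all 181 members every tyrosol library lay below every untreated library, which was so for 63.2% of all genes at or above 40 RPKM untreated. That minimum is set on the untreated mean alone. Over all 8905 features tested with edgeR, 42.9% were called lowered and 40.6% raised. The smallest gap was in AN3228, whose highest tyrosol library was 5.26-fold below its lowest untreated library.

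**Figure D1:**
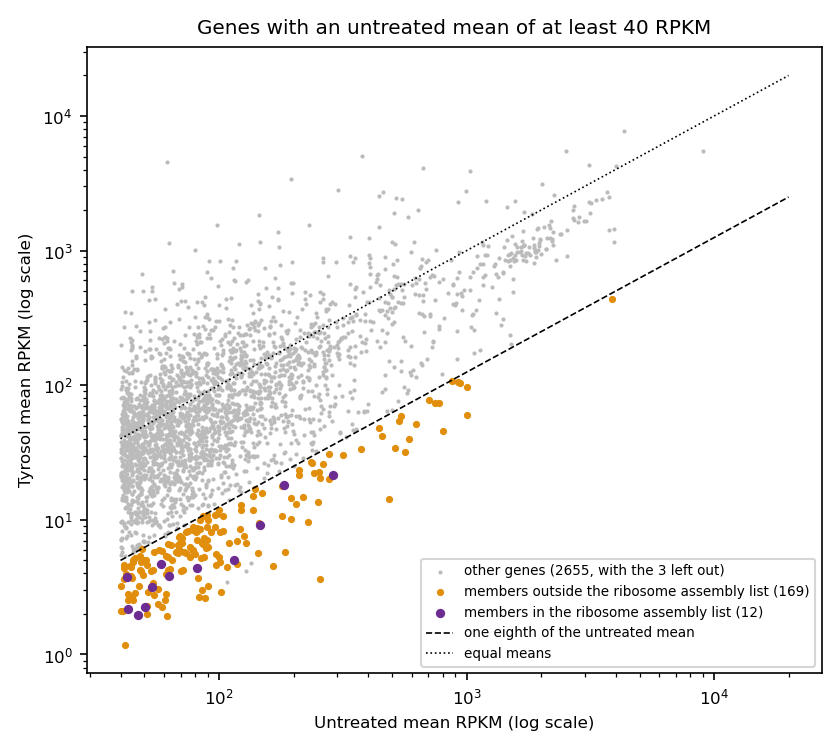
Mean RPKM over the 3 tyrosol libraries (vertical, log scale) against mean RPKM over the 3 untreated libraries (horizontal, log scale) for the 2836 genes with an untreated mean of at least 40 RPKM; 1 point is 1 gene. The 181 members lie on or below the dashed line that marks 8-fold lower, from 40.1 to 3867 RPKM untreated, and the 3 grey points below it are the genes left out.

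The share of genes that were members differed little between untreated levels. It was 6.12% of 1356 genes between 40 and 80 RPKM, 7.06% of 765 genes between 80 and 160 RPKM, 6.69% of 359 genes between 160 and 320 RPKM, 6.49% of 154 genes between 320 and 640 RPKM and 4.95% of 202 genes above that. The median fold by which members were lower was 12.4, 13.0, 12.9, 11.7 and 9.58 in the same order. The listed lengths of members had a median of 1653 bases, against 1478 bases for the other genes at or above 40 RPKM, and the quartiles overlapped widely, at 1207 and 2183 against 1018 and 2076 bases.

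The snoRNP genes were the most abundant of the named ribosome assembly members in untreated mycelium. The gene cbf5 encodes the pseudouridine synthase of the box H/ACA particles, which turn chosen uridines of ribosomal RNA into pseudouridine. It had 20.3, 20.4 and 23.5 RPKM in the tyrosol libraries, against 251, 286 and 327 RPKM in the untreated libraries, and its mean was 13.5-fold lower with tyrosol. The genes nop58 and sik1 encode the paired core proteins of the box C/D particles, which guide methylation of ribosomal RNA. For nop58 the tyrosol libraries had 8.33, 8.96 and 10.1 RPKM, against 141, 142 and 155 RPKM in the untreated libraries, and the mean was 16.01-fold lower. For sik1 these were 15.98, 16.7 and 21.9 RPKM in the tyrosol libraries and 153, 189 and 206 RPKM in the untreated libraries, and the mean was 10.03-fold lower. The groups lay far apart in all 3 genes, and the untreated library of replicate 3 was the highest each time.

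The pair of named small subunit members lay lower in level. The product of lcp5 belongs to the processome that matures the 18S precursor with the U3 particle. Its gene had 3.21, 3.62 and 2.65 RPKM in the tyrosol libraries, against 43.6, 55.3 and 61.6 RPKM in the untreated libraries (16.9-fold lower). The gene rrp3 encodes a DEAD-box helicase of 18S processing. It had 1.46, 2.40 and 2.93 RPKM in the tyrosol libraries, against 47.4, 49.3 and 54.1 RPKM in the untreated libraries (22.2-fold lower). Its tyrosol levels rest on 23, 40 and 50 reads, and tyrosol replicate 1 was the lowest.

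Named large subunit members numbered 7. The proteins encoded by nop7 and erb1 sit in one complex that is needed for maturation of the precursors of the large subunit. The nop7 transcript had 4.54, 4.94 and 5.53 RPKM in the tyrosol libraries, against 102, 116 and 127 RPKM in the untreated libraries, a 22.9-fold lower mean. The erb1 transcript had 4.30, 4.45 and 5.40 RPKM in the tyrosol libraries, against 58.5, 57.01 and 59.8 RPKM in the untreated libraries, a 12.4-fold lower mean. The nop7 transcript was the higher of the pair in every untreated library, while the tyrosol ranges of both genes overlapped.

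The helicase gene has1, whose product acts on both subunits, had 4.44, 4.15 and 4.68 RPKM in the tyrosol libraries, against 73.02, 80.8 and 90.1 RPKM in the untreated libraries (18.4-fold lower). A second helicase gene, dbp9, had 2.11, 2.08 and 2.34 RPKM in the tyrosol libraries, against 37.9, 42.99 and 48.3 RPKM in the untreated libraries (19.8-fold lower). The spb1 gene encodes a methyltransferase of the large ribosomal RNA. It had 3.50, 3.77 and 4.14 RPKM in the tyrosol libraries, against 54.8, 63.8 and 69.8 RPKM in the untreated libraries (16.5-fold lower).

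The largest fold among the named ribosome assembly members was in loc1, whose product binds RNA and takes part in large subunit assembly. It had 1.22, 2.62 and 2.05 RPKM in the tyrosol libraries, against 36.4, 49.5 and 54.9 RPKM in the untreated libraries, a 23.9-fold lower mean. With only 11, 25 and 20 reads in the tyrosol libraries, that fold is imprecise. The gene nop12, needed for processing of the large ribosomal RNA, had 4.08, 4.07 and 3.10 RPKM in the tyrosol libraries, against 44.2, 38.1 and 44.97 RPKM in the untreated libraries (11.3-fold lower). A further member outside the list used below, pxr1, encodes a nucleolar protein that acts on the ends of snoRNAs and on ribosomal RNA. It had 3.39, 4.42 and 5.36 RPKM in the tyrosol libraries, against 32.1, 42.5 and 49.5 RPKM in the untreated libraries (9.42-fold lower), close to the minimum level and the minimum fold alike.

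Most of the other ribosome assembly genes found missed the rule by their level and not by their fold. Lists of 85 small subunit, 93 large subunit and 16 snoRNP symbols were matched to the reference table, which held 10, 12 and 3 of them. Of these 25 genes 12 were members and 13 were not, and the 153 members without a symbol could not be placed in any list. Of the 13, 11 had an untreated mean under 40 RPKM, and 9 of those 11 were nonetheless at least 8-fold lower with tyrosol. The 13 genes were tested with edgeR's quasi-likelihood test over all 8905 features that passed the filter on low counts. All 13 fell (adjusted p at most 3.7e-08) and 0 rose, where 42.9% of all tested features fell and 40.6% rose, 83.5% in all. Their median log2 fold change was -3.09, against -0.04 over all tested features. That these genes fell was known from earlier results of these data, so the count is not independent evidence.

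The lowest of the 13 were spb4, mak5 and dbp4, helicase genes of subunit assembly, and utp10, which encodes a large scaffold protein of the small subunit processome. For spb4 the tyrosol libraries had 0.953, 0.766 and 0.837 RPKM, against 20.9, 23.5 and 25.4 RPKM in the untreated libraries, with a log2 fold change of -4.54 ± 0.15. For mak5 these were 0.702, 1.51 and 0.829 RPKM in the tyrosol libraries and 24.4, 27.9 and 29.9 RPKM in the untreated libraries (-4.52 ± 0.19). The log2 fold changes of dbp4 and utp10 were -4.39 ± 0.14 and -3.77 ± 0.12. All 4 were more than 8-fold lower, from untreated means of 23.3 to 27.6 RPKM that lay under the minimum level.

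At the other end, drs1 and dbp3 were the only genes of the 13 above 40 RPKM untreated, and both were less than 8-fold lower. The helicase gene drs1 had 5.83, 5.65 and 5.80 RPKM in the tyrosol libraries, against 43.1, 44.7 and 47.6 RPKM in the untreated libraries (7.83-fold lower, log2 fold change -2.74 ± 0.09). The helicase gene dbp3 had 19.5, 17.6 and 17.4 RPKM in the tyrosol libraries, against 88.7, 123 and 135 RPKM in the untreated libraries (6.37-fold lower, log2 fold change -2.44 ± 0.14). The smallest fall of the 13 was in rrp36 (-2.02 ± 0.15), which acts in early cleavage of the precursor, and the helicase gene dbp8 had a log2 fold change of -2.57 ± 0.15. The 11 DEAD-box helicase genes of the list, 3 of them members, were 6.37 to 27.3-fold lower with tyrosol.

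**Figure D2:**
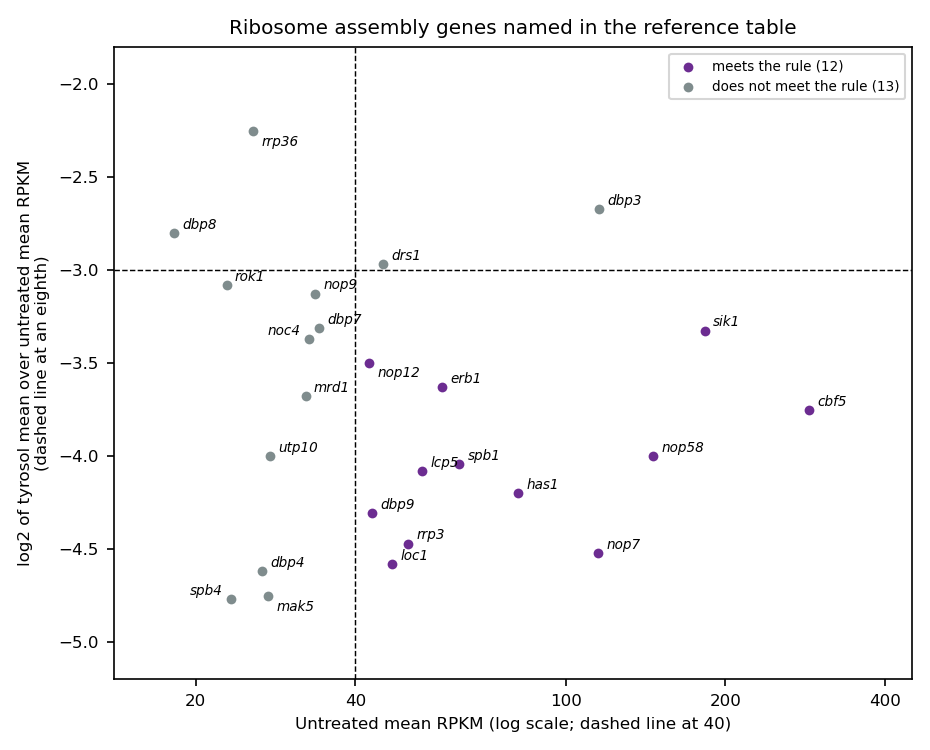
Log2 of the tyrosol mean over the untreated mean RPKM (vertical) against the untreated mean RPKM (horizontal, log scale) for the 25 ribosome assembly genes named in the reference table; 1 point is 1 gene. The 12 members lie right of the dashed line at 40 RPKM and below the dashed line at 8-fold lower; of the 13 other genes 9 lie left of the first line and below the second, and drs1 and dbp3 lie right of the first and above the second.

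Lists of neighbouring processes were likewise matched by symbol, and only a small share of each was found. Of 37 translation factor symbols 6 were found, and the member among them was pab1, which encodes the poly(A)-binding protein of messenger RNA tails. It had 10.2, 10.2 and 11.9 RPKM in the tyrosol libraries, against 188, 170.1 and 179.5 RPKM in the untreated libraries (16.6-fold lower). The other 5 all fell with a median log2 fold change of -1.70, from -1.99 in tif1 to -1.30 in tif32 (edgeR adjusted p at most 1.5e-08), where 42.9% of all tested features fell and 83.5% were called in either direction. Of 39 symbols of nucleotide and one-carbon synthesis 7 were found, and the member among them was ura7, the CTP synthase gene, with 3.32, 3.997 and 4.09 RPKM in the tyrosol libraries, against 41.7, 44.1 and 46.2 RPKM in the untreated libraries (11.6-fold lower). Of the other 6, 5 fell, against the same 42.9% of all features, led by pyrG at -2.00 ± 0.13, and gua1 did not pass (log2 fold change 0.11 ± 0.09, edgeR adjusted p = 0.256).

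Of 43 tRNA modification symbols 7 were found, none of them a member. All 7 fell (edgeR adjusted p at most 1.9e-05), where 42.9% of all tested features fell. Their median log2 fold change was -2.25, and the values ran from -4.20 in trm6 to -0.76 in trm5. The trm6 gene, for a subunit of a tRNA methyltransferase, had a log2 fold change of -4.20 ± 0.18 (edgeR adjusted p = 1.1e-10), from an untreated mean of 26.6 RPKM that lay below the minimum of 40. The only gene found of the exosome and rRNA decay list, rat1, had a log2 fold change of -0.96 ± 0.09. The only one found for nuclear transport, kapA, did not pass (0.13 ± 0.08, edgeR adjusted p = 0.157). No symbol of the list for RNA polymerases I and III was found in the reference table.

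Sterol synthesis contributed 3 named members besides the gene left out. The erg1 gene encodes squalene epoxidase, the enzyme that adds the first oxygen to squalene. It had 11.7, 13.5 and 14.1 RPKM in the tyrosol libraries, against 243, 214 and 156 RPKM in the untreated libraries (15.6-fold lower). The erg6 gene, for the sterol methyltransferase of the side chain, had 24.4, 25.8 and 28.6 RPKM in the tyrosol libraries, against 204, 237 and 272 RPKM in the untreated libraries (9.05-fold lower). The erg4 gene encodes the reductase of the last step to ergosterol and was the weakest of the 3, with 3.16, 2.29 and 3.17 RPKM in the tyrosol libraries, against 47.2, 45.6 and 44.6 RPKM in the untreated libraries (15.9-fold lower). In the untreated libraries erg1 was highest in replicate 1 and erg6 in replicate 3.

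Protein folding and mitochondrial import were represented by hsp70 and tom70. The chaperone gene hsp70 was the most abundant named member, with 97.4, 102 and 118 RPKM in the tyrosol libraries, against 1003, 855 and 905 RPKM in the untreated libraries (8.69-fold lower). It remained well transcribed with tyrosol, above the untreated level of most members. The gene tom70, for a receptor of protein import on the outer mitochondrial membrane, had 16.01, 14.4 and 17.5 RPKM in the tyrosol libraries, against 146, 145 and 157 RPKM in the untreated libraries (9.36-fold lower).

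The largest fold among named members was in rmtA, which encodes a protein arginine methyltransferase of A. nidulans. It had 3.92, 4.75 and 4.86 RPKM in the tyrosol libraries, against 151, 158 and 184 RPKM in the untreated libraries, a 36.5-fold lower mean. The gene ypdA, for the histidine phosphotransfer protein that links sensor kinases to the Hog kinase pathway in A. nidulans, had 8.28, 8.31 and 8.04 RPKM in the tyrosol libraries, against 90.2, 111 and 109.6 RPKM in the untreated libraries (12.6-fold lower). Its 3 tyrosol libraries differed little.

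Regulators of asexual development in A. nidulans included sclB and flbD. The transcription factor gene sclB had 8.05, 6.44 and 6.79 RPKM in the tyrosol libraries, against 98.5, 86.3 and 83.7 RPKM in the untreated libraries (12.6-fold lower). The Myb-type factor gene flbD, which acts upstream of the conidiation regulator brlA, had 5.78, 3.70 and 4.48 RPKM in the tyrosol libraries, against 56.6, 50.4 and 46.4 RPKM in the untreated libraries (10.98-fold lower). Of 8 listed markers of conidiophores and spores, 7 were found, none of them a member, and their summed level was 162 to 198 RPKM in the tyrosol libraries and 238 to 273 RPKM in the untreated libraries, most of it from the hydrophobin gene rodA. Of the 6 tested, 5 fell (edgeR), by 0.31 in rodA to 2.58 in yA on the log2 scale, and vosA rose by 0.47, so all 6 were called, where 83.5% of all tested features were. Of those that fell, yA, abaA and wetA were weak in both groups. Their means were 1.09, 0.79 and 0.27 RPKM with tyrosol and 7.64, 2.64 and 1.23 RPKM untreated, and wetA had 5 reads in each tyrosol library. The marker dewA was at or near 0 in every library, with at most 0.39 RPKM in a tyrosol library and 0.25 RPKM in an untreated library. Of 5 genes listed as markers of sexual fruiting 3 were found, veA, nsdD and steA, while mutA and a laccase gene of the fruiting body were not. The summed level of the 3 was 348 to 356 RPKM in the tyrosol libraries and 193 to 238 RPKM in the untreated libraries. All 3 were transcribed in untreated mycelium, so this sum does not by itself measure cells of fruiting bodies. Only veA had the higher mean with tyrosol, at 240 against 83.1 RPKM untreated. The tyrosol and untreated means were 25.3 and 42.5 RPKM for nsdD, and 85.2 and 88.8 RPKM for steA. In the edgeR test veA rose by 1.76 on the log2 scale, nsdD fell by 0.52, and steA did not pass (log2 fold change 0.16 ± 0.10, edgeR adjusted p = 0.150). The part of either marker group in the members' levels was not tested.

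Among the remaining named members, gldB encodes a glycerol dehydrogenase of A. nidulans that acts in glycerol synthesis. It had 30.5, 26.5 and 33.8 RPKM in the tyrosol libraries, against 339.5, 325 and 287 RPKM in the untreated libraries (10.5-fold lower). A transporter gene named mfsA, after the major facilitator superfamily, had 8.81, 8.38 and 11.2 RPKM in the tyrosol libraries, against 160.5, 136 and 140.4 RPKM in the untreated libraries (15.4-fold lower). For nopA the tyrosol libraries had 44.5, 45.3 and 54.9 RPKM, against 544, 486 and 299 RPKM in the untreated libraries (9.19-fold lower), with untreated replicate 3 well below the other untreated libraries. The afeA gene had 7.21, 5.74 and 6.76 RPKM in the tyrosol libraries, against 83.1, 93.3 and 82.7 RPKM in the untreated libraries (13.1-fold lower).

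**Figure D3:**
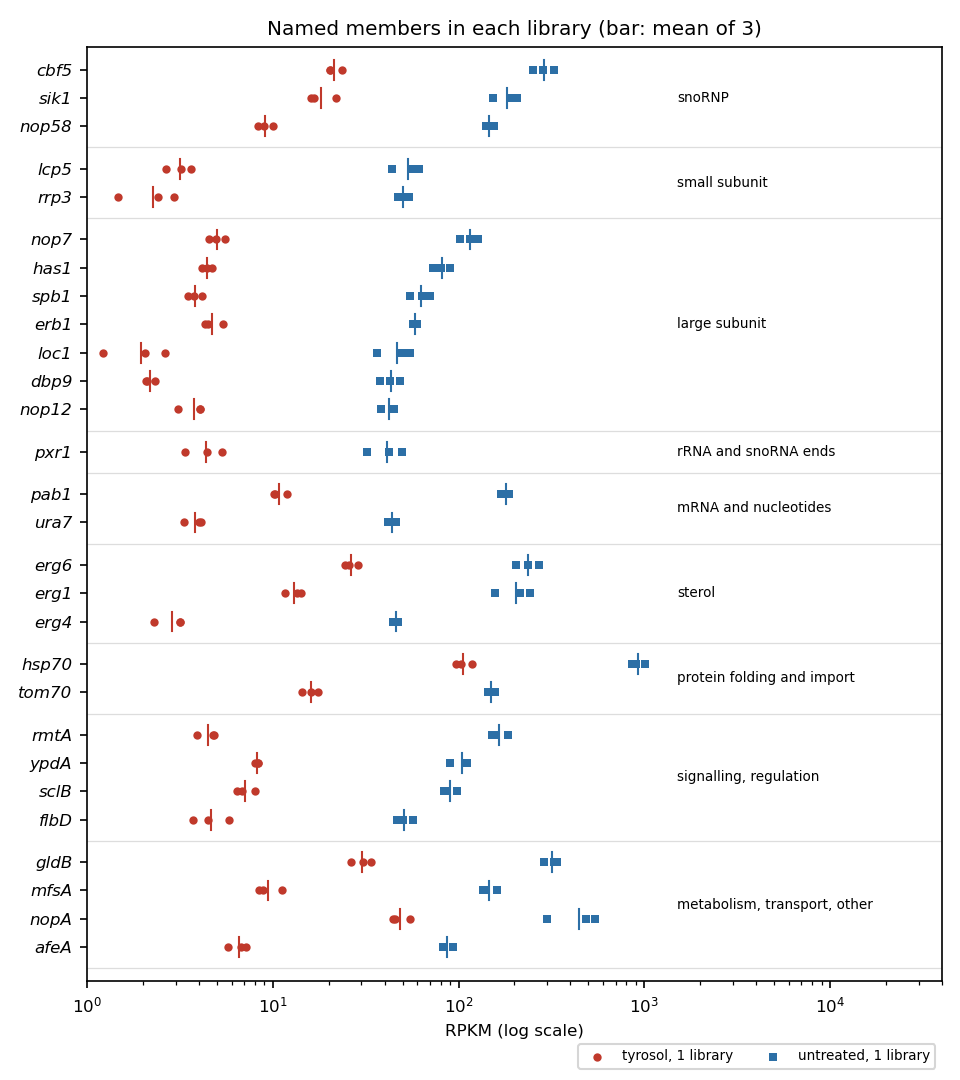
RPKM (log scale) of the 28 members with a gene symbol in each of the 3 tyrosol libraries (red circles) and the 3 untreated libraries (blue squares), grouped by role, with a bar at each group mean. The groups stand apart in every gene, from hsp70 with means of 106 RPKM with tyrosol and 921 RPKM untreated down to loc1 with 1.96 and 46.9 RPKM.

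The 153 members without a symbol held both the most abundant transcripts and the largest folds. The single most abundant member, AN4888, had 432, 415 and 467 RPKM in the tyrosol libraries, against 4223, 4285 and 3093 RPKM in the untreated libraries (8.83-fold lower). It alone made up 11.9% of the members' summed untreated RPKM, and the 10 most abundant members together made up 35.8%. AN6657 followed with 58.02, 62.5 and 60.3 RPKM in the tyrosol libraries, against 1057, 1114 and 837 RPKM in the untreated libraries (16.6-fold lower). Close behind, AN12473 had 98.8, 86.6 and 108 RPKM in the tyrosol libraries, against 919, 981 and 1101 RPKM in the untreated libraries (10.2-fold lower). AN4859 had means of 104 ± 12.8 RPKM with tyrosol and 942 ± 125 RPKM untreated (SD, n = 3 each). AN0468 had means of 107 ± 15.9 RPKM with tyrosol and 876 ± 154 RPKM untreated, likewise from 3 libraries each. With hsp70 these were the 6 most abundant, and 4 of the 6 kept a tyrosol mean above 100 RPKM.

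The largest fold of all was in AN5564, with 3.65, 3.45 and 3.89 RPKM in the tyrosol libraries, against 283, 249.5 and 237 RPKM in the untreated libraries, a 70.1-fold lower mean. Its tyrosol levels rest on 78, 78 and 90 reads, against 6785, 5970 and 4462 reads in the untreated libraries. After rmtA came AN0565, AN12070, AN8641 and AN0362. AN8641 was abundant untreated, with means of 14.3 ± 0.338 RPKM with tyrosol and 488 ± 63.7 RPKM untreated (SD, n = 3 each, 34.2-fold lower). AN0565, the longest member at 7254 bases, had 1.09, 1.10 and 1.34 RPKM in the tyrosol libraries, against 45.04, 37.02 and 43.6 RPKM in the untreated libraries (35.5-fold lower). The mean of AN12070 was 35.1-fold lower, at 2.89 ± 0.196 RPKM with tyrosol and 102 ± 16.9 RPKM untreated (SD, n = 3 each). AN0362 was 33.1-fold lower on 32, 19 and 26 tyrosol reads.

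At the limits of the rule the values ran on without a gap. Just inside the fold, AN2926, AN6565 and AN0468 were 8.06, 8.10 and 8.18-fold lower, and just outside it AN1510, AN10433 and AN3679 were 7.97, 7.93 and 7.91-fold lower. Just inside the level, AN10058, AN5764 and AN3313 had untreated means of 40.1, 40.2 and 40.9 RPKM. Just below it, AN6266, AN9163 and pldA had 39.4, 39.3 and 39.2 RPKM untreated and were 10.7, 9.96 and 13.3-fold lower. Among 4264 genes with an untreated mean between 5 and 40 RPKM, 172 (4.03%) were at least 8-fold lower. In the other direction, 196 of 2591 genes with a tyrosol mean of at least 40 RPKM were at least 8-fold higher with tyrosol.

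Replicate libraries of a group differed in ways that the choice of members did not use. The coefficient of variation over 3 libraries had a median of 10.4% with tyrosol and 10.7% untreated over the members, against 4.60% with tyrosol and 9.01% untreated over the other genes at or above 40 RPKM. With tyrosol the median level was 6.19 RPKM over the members and 66.8 RPKM over those other genes, and the part of counting error in that spread was not tested. Of the 181 members 110 were highest in tyrosol replicate 3 among the tyrosol libraries, against 33.9% of the other genes. In that library the members had a median of 1.06 times their tyrosol mean.

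Untreated replicate 3 was the highest untreated library for 87 members (48.1%) and the lowest for 70 (38.7%), against 45.9% and 25.7% of the other genes at or above 40 RPKM. All 12 ribosome assembly members were highest there, and 10 of the 12 were lowest in untreated replicate 1, where 49.5% of the other genes were lowest. Among the tyrosol libraries 9 of the 12 were highest in replicate 3 and 8 were lowest in replicate 1, with medians of 1.09 and 0.917 times the tyrosol mean. Of the other members 59.8% were likewise highest in tyrosol replicate 3 and 40.2% were lowest in tyrosol replicate 1. The same shares were 33.9% and 27.8% of the other genes at or above 40 RPKM. Untreated replicate 3 was also highest for 12 of the 13 other ribosome assembly genes, and 10 of the 13 were lowest in untreated replicate 1. Among the tyrosol libraries these 13 genes matched the pattern of the 12 members only in part. Of the 13, 3 were highest in tyrosol replicate 3, 6 in replicate 2 and 4 in replicate 1. As with the members, more of them were lowest in tyrosol replicate 1, 7 of the 13, than in either other tyrosol library. The ratio of untreated replicate 3 to untreated replicate 1 had a median of 1.26 over the 12 members and 1.204 over the 13 others, against 1.01 over the other members and 1.05 over the other genes at or above 40 RPKM. Among the other members 75 (44.4%) were highest in untreated replicate 3. With 3 libraries a group this is a description of these libraries, and it was noticed after the values had been seen.

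**Figure D4:**
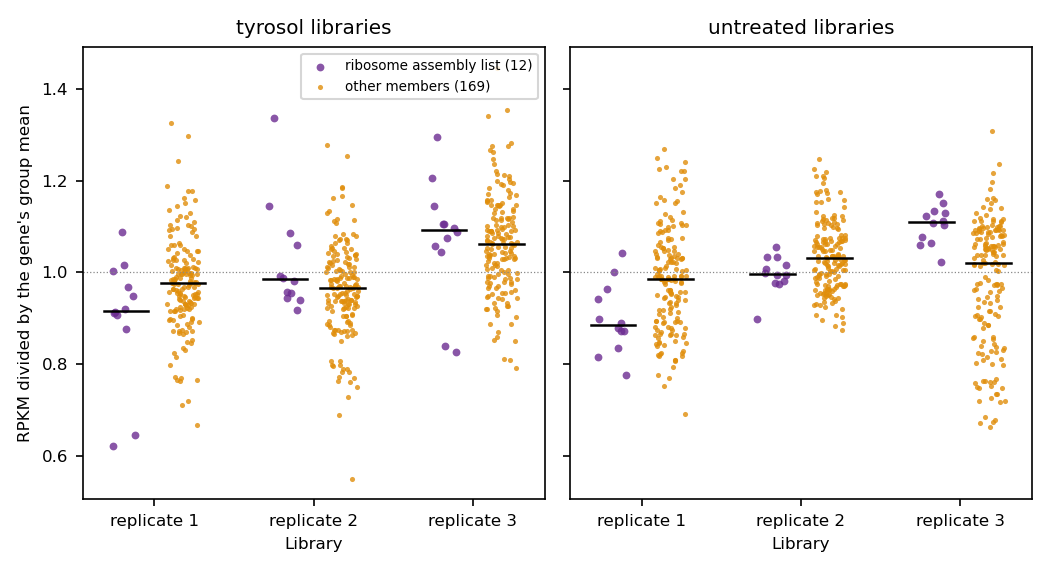
RPKM of each member divided by its mean over the 3 libraries of the same group, for the tyrosol libraries (left panel) and the untreated libraries (right panel), with the 12 ribosome assembly members in purple, the other members in orange and a bar at each median. In untreated replicate 3 all 12 ribosome assembly members lie above 1, while the other members run from 0.664 to 1.31.

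Members lay beside each other in the genome in 6 places. In the reference gene order, 12 of the 175 placed members (6.86%) had another member as direct neighbour, in 6 pairs and in no longer run. Of 129 neighbouring places filled by a gene at or above 40 RPKM untreated, 12 (9.30%) held a member, where members made up 6.38% of all such genes. The pairs were AN5564 with gldB, erb1 with AN1366, AN0468 with AN0467, AN7205 with AN7204, AN2596 with AN2597 and AN0362 with AN10058. In the first, gldB and AN5564 were 10.5 and 70.1-fold lower. The next gene on the side of AN5564, AN5565, had a log2 ratio of tyrosol to untreated means of 4.77. On the side of gldB the next gene, AN10694, had a log2 ratio of -2.43. In the second, erb1 and AN1366 were 12.4 and 9.89-fold lower between neighbours with log2 ratios of 1.38 and 1.07. Near AN0362 and AN10058 lay a further member, AN0364, with velB between them, a gene of the velvet family of developmental regulators whose own log2 ratio was -1.07. The neighbours are given by gene order only, since the genome build used for counting is unknown, and reads shared between overlapping genes cannot be told apart.

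The choice of scale set how many genes met the rule. With TMM-scaled library sizes in place of library totals the ratios were closer to 1 by a factor of 1.17, and 136 of the 181 members still met the rule. All 12 ribosome assembly members stayed at least 8-fold lower on that scale, at 8.57 to 20.4-fold, although dbp9 and nop12 dropped under 40 RPKM untreated. The other members with a symbol that no longer met the rule were pxr1, by its level, and nopA, erg6 and hsp70, at 7.87, 7.74 and 7.44-fold lower. Abundant members without a symbol fell short of 8-fold too. With TMM scaling in edgeR, AN4888, the most abundant member, had a log2 fold change of -2.92. AN4859 and AN0468 had -2.96 and -2.81, all less than 8-fold lower, while AN6657 and AN12473 stayed beyond 8-fold at -3.83 and -3.13.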

How the data were processed

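RNA of lyophilized mycelium was sequenced from 3 tyrosol and 3 untreated libraries (TruSeq RNA kit, per the labels' protocols). FastQC, HISAT2 2.1.0, edgeR and DESeq2 1.24.0 are listed, per the submitters' processing notes. The sources used here name no build, annotation, counter or strand setting. Per the file headers, each feature has a whole-number count, a length and an RPKM value for every library, all deposited by the authors. Deposited RPKM equals count over length and column total (largest relative difference 1.26e-14). Columns T were read as tyrosol and K as untreated (Hungarian kontroll). Symbols and gene order are RefSeq's, assembly ASM1142v1. Replicates differed by more than sampling noise in every pair (chi-square over its degrees of freedom 5.15 to 23.0). Depth was 9353438 to 11917409 reads.

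Members were found on deposited RPKM. For the listed genes edgeR 4.0.16 (R 4.3.3) was run on the counts of all features (filterByExpr, TMM, two-sided quasi-likelihood test, Benjamini-Hochberg adjusted p under 0.05, no covariate), first tested on simulated data. The SE is the log2 fold change over the root of F. DESeq2 1.42.0 was an alternative. Members and lists were chosen with earlier results of these data known. By rule the text names members with a symbol, the 6 most abundant, the 6 lowest in ratio, 3 genes on each side of a limit, neighbouring members, and the 4 lowest and 4 highest of the other ribosome assembly genes. Other genes were named after their values were seen. No sequence was at hand.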

Additional observations from a re-analysis of the deposited data

How the results depend on the processing

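The count of 181 genes was 136 with TMM-scaled library sizes, 131 with DESeq2 size factors, 169 with 1 RPKM added to both means and 190 with medians in place of means. It was 275 at 6-fold and 129 at 10-fold. It was 265, 98 and 725 with an untreated minimum of 20 RPKM, of 80 RPKM and with none, so the size of the group rests on the limits chosen. Each single library left out gave 178 to 190 genes, with 175 to 180 of the 181 members among them. The median ratio of the tyrosol to the untreated mean, 0.0807, was 0.0944 with TMM scaling and 0.0785 with medians, and 0.0800 to 0.0829 without any 1 library. No member's ratio moved by more than 1.29 times when 1 library was dropped.

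All 13 other ribosome assembly genes were called lowered, and 0 raised, under DESeq2 size factors, library totals alone, no filter on low counts, the DESeq2 Wald test, the replicate block and with each library left out. The count of changed features, 7432, ran from 7351 to 7762 under those settings, and 7147 to 7526 when a library was dropped. Over all but the rarest features the deviations of same-numbered libraries correlated at -0.106, -0.00529 and -0.0346, so the replicate numbers were not taken to pair the samples, although most ribosome assembly members were highest in replicate 3 of both groups. Blocking on them gave 7383 changed features. Library totals alone put the median log2 fold change of all tested features at -0.26, against -0.04 with TMM. Low tyrosol counts limit the precision of the folds of weakly expressed members.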
